A study of Mus musculus with 14 samples.

Results

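The core pluripotency genes are described here through 10 members, *Pou5f1*, *Nanog*, *Sox2*, *Sall4*, *Lin28a*, *Utf1*, *Dppa4*, *Dppa5a*, *L1td1* and *Fgf5*, out of 22851 gene symbols in the RNA-seq tables. The members were chosen by name, through the RefSeq identifier of each row, and each was found at 1 locus. The study asked what the TBP-associated factor TAF9B, a relative of a subunit of the general transcription factor TFIID, does while mouse embryonic stem (ES) cells become motor neurons. Its RNA-seq data are 11 poly-A libraries, 1 per condition. ES cells and embryoid bodies (EBs, floating aggregates of differentiating cells) at days 2, 4 and 6 were sequenced from wild type cells of the JM8 clone and from TAF9B -/- cells of the Taf9b_BG10 clone, whose *Taf9b* coding exons were exchanged for *LacZ-Neo*. The KO cells are male and lack their 1 copy of this X-linked gene. Both clones are of C57BL/6 background and were grown on feeder layers of inactivated mouse embryonic fibroblasts before differentiation with retinoic acid and the smoothened agonist SAG, and each genotype is represented by 1 clone. Day 4 is labelled as neuronal progenitors and day 6 as motor neurons. Whole spinal column of newborn wild type and KO mice and spinal cord of newborn wild type mice were also sequenced. The ChIP data come from motor neuron EBs of another wild type line, HBG3, which carries a GFP reporter, and were made after a longer differentiation than the day 6 RNA.

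With 1 library per condition no difference could be set against a spread between replicates, so no test was made and every value describes 1 library. Levels are FPKM, fragments scaled to transcript length and library size, and the depth behind them is unknown because the tables hold no read counts. The 11 libraries had a summed FPKM between 411263 and 774507. *Taf9b* itself goes against the labels in culture. In ES cells the WT-labelled library held 0.537 FPKM and the KO-labelled one 3.06 FPKM, and *Taf9b* was also higher in the KO-labelled library at EB day 2 (0.516 and 4.08 FPKM), day 4 (1.96 and 4.27 FPKM) and day 6 (1.37 and 4.01 FPKM). In spinal column the order was reversed, with 6.65 FPKM under the label WT and 3.31 FPKM under the label KO. The libraries are therefore named by their labels throughout, and every direction between labels rests on these labels. Whether reads from what the targeted allele still transcribes add to the *Taf9b* value was not tested.

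The pluripotent state of ES cells is held by a network of transcription factors in which OCT4 (the product of *Pou5f1*), SOX2 and NANOG bind together at many enhancers, including their own, so that each helps to keep the others on. When cells leave this state the naive genes are lost first, genes of the formative state such as *Fgf5* appear for a short time, and the core factors are shut down as the germ layers form. SOX2 is an exception, since neural progenitors keep it.

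The joint recognition element of OCT4 and SOX2 is the sequence feature for which *Nanog* is best known, and promoter sequences were therefore examined for the 7 members that RefSeq's promoter table (build GRCm38.p6) holds. *Sall4*, *Dppa4* and *Dppa5a* are named only. The stretches shown end at the base before the annotated start, except that of *Utf1*, which ends at position -51, and are given on the plus strand, 5′ to 3′. Capitals mark the composite element in *Nanog*, a match to its OCT4 part, ATGCAAA, in *Sox2*, and matches to the GC box in *Pou5f1*, *Utf1* and *Fgf5*, on either strand. The *Sox2* stretch also holds a GC box match, at position -111, which is left in lower case.
*Nanog*, chr6:122707369-122707488: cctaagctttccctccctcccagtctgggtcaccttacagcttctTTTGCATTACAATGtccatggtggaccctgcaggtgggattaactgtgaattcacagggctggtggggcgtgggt
*Sox2*, chr3:34649855-34649994: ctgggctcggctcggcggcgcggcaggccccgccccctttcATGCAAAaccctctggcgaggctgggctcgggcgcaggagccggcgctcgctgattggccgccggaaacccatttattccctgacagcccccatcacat
*Pou5f1*, chr17:35505932-35506031: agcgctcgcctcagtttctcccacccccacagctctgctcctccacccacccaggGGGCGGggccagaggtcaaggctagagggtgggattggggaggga
*Utf1*, chr7:139943656-139943805: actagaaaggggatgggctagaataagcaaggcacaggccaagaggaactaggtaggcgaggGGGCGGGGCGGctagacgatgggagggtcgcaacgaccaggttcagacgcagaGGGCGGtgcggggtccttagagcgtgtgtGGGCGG
*Fgf5*, chr5:98254084-98254183: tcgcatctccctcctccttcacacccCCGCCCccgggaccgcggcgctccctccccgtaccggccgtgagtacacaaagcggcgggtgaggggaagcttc

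The composite element was searched on both strands as CATTGT, 1 base of any kind and ATGCAAA in the 250 bases before each start. Both *Nanog* entries, whose windows overlap, held it on the minus strand, and they were the only 2 of 32851 promoters in the table that did. Its presence in *Nanog* was known before the search, and so long an exact string is rarely met in windows of this size. Other forms of the element, and elements outside the 250 bases, were not searched, so the count does not show that *Nanog* alone has one. In the first entry its match begins at position -75 from the start. The OCT4 part alone, which is contained in the composite element, was found in 2 of the 7 members, *Nanog* and *Sox2*, and in 4.12% of all promoters. The GC box GGGCGG was found in 4 of the 7 members and in 32.7% of all promoters. *Utf1*, which codes for a chromatin-bound factor of undifferentiated cells, held 4 matches, of which the first pair overlaps by 1 base. TATAAA was found in none of the 7 members and in 12.4% of all promoters. The members also differed in base composition. The 250 bases before the start were 72.0% G or C in *Sox2* and 70.8% in *Fgf5*, but 52.0% in the first entry of *Nanog*, against a median of 52.4% over all promoters. A match of letters is a description of these windows and says nothing of binding.

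Most members had high levels in ES cells and in EBs of day 2, were lowest at day 4, and stood well above day 4 again at day 6. Of the 10 members, 8 had the lowest of their 4 culture values at day 4 in the libraries labelled WT, the exceptions being *Sox2* and *Lin28a*, and 9 did in the libraries labelled KO, the exception being *Lin28a*. Together the members made up 1.02% of the summed FPKM in the WT-labelled ES cell library, 0.531% at day 2, 0.0640% at day 4 and 0.209% at day 6. Under the label KO these shares were 1.08%, 0.569%, 0.188% and 0.597%. The shares weigh *Dppa5a* most, which alone held 3744 of the members' 5917 FPKM in the WT-labelled ES cell library. At day 4 under the label WT *Lin28a* was highest, with 199 of 433 FPKM. While the WT-labelled share fell from ES cells to day 2, 5 of 10 members were higher at day 2. In such bulk libraries fewer pluripotent cells and less RNA per cell cannot be told apart.

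**Figure D1:**
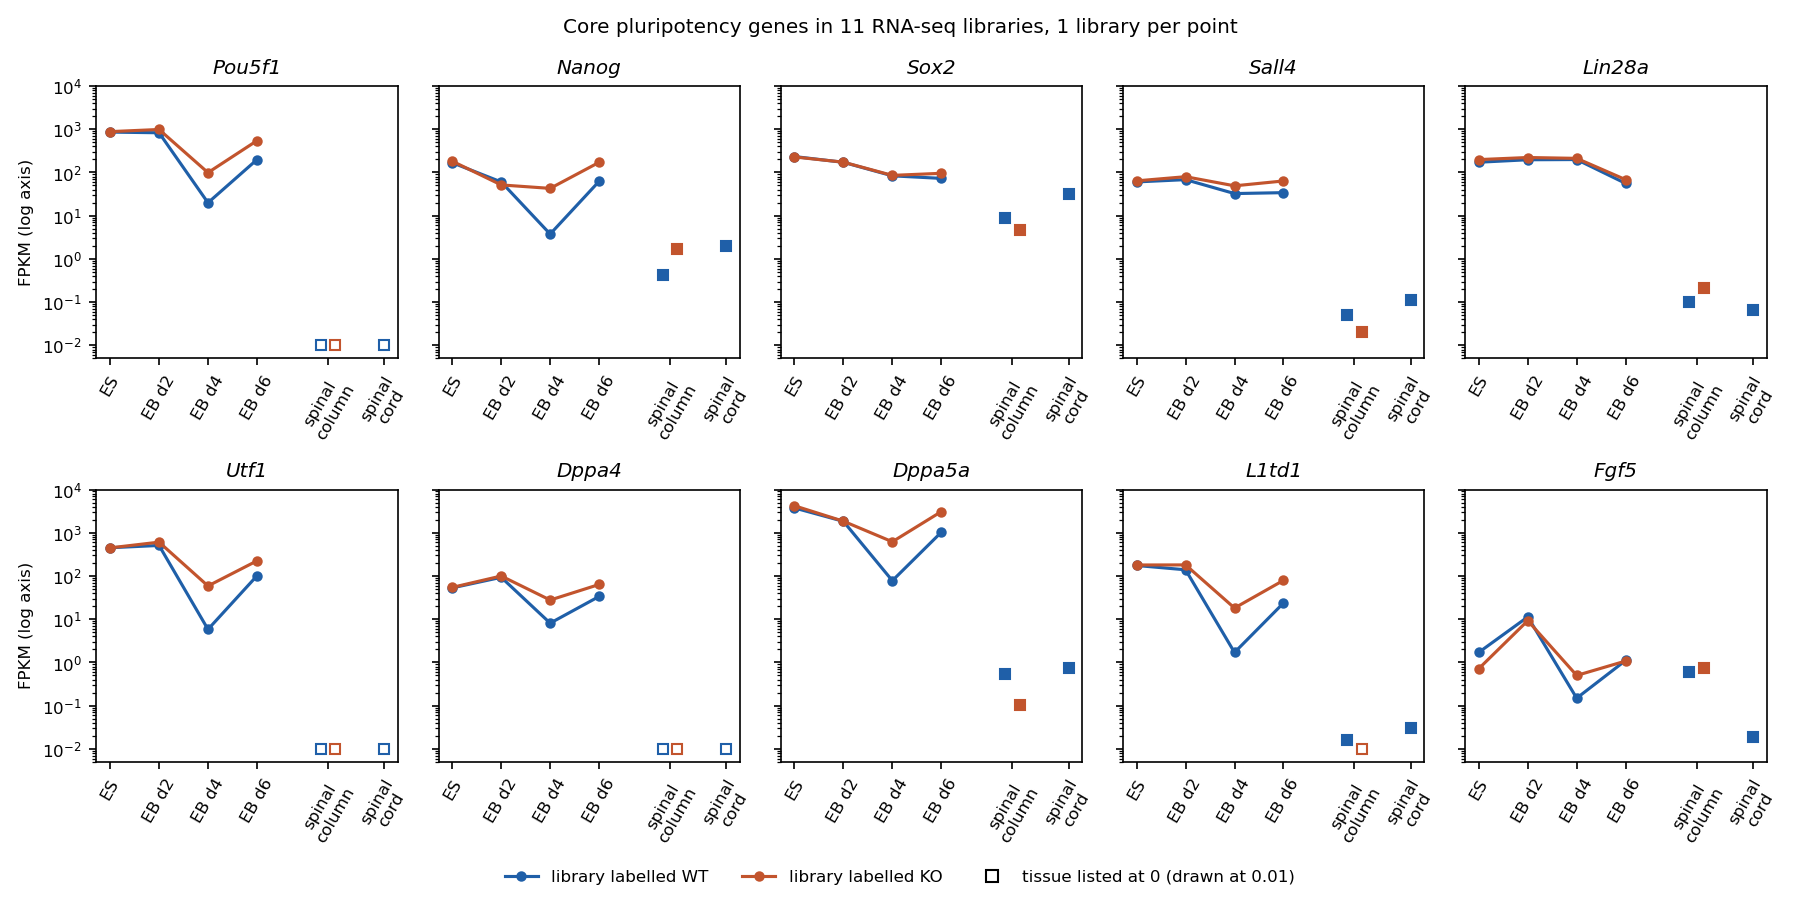
FPKM (log axis) of the 10 members in the 11 RNA-seq libraries, 1 point per library, with circles and lines for ES cells and EB days 2, 4 and 6 and squares for newborn tissues; open squares are values listed at 0. Blue is labelled WT and orange labelled KO: most members dip at day 4, as *Pou5f1* does to 19.9 and 99.1 FPKM, while *Lin28a* is at 199 and 212 FPKM at day 4.

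*Pou5f1*, which codes for OCT4, is on chromosome 17 of mm9 from 35642977 to 35647722. The WT-labelled libraries held *Pou5f1* at 859 FPKM in ES cells, 829 FPKM at EB day 2, 19.9 FPKM at day 4 and 198 FPKM at day 6. In those labelled KO the values were 880, 987, 99.1 and 543 FPKM. It was thus level between ES cells and day 2, lowest at day 4 under both labels, and at day 6 it was back at 23.0% of the ES cell level in the WT-labelled library and 61.7% in the KO-labelled one. *Pou5f1* was listed at 0 in all 3 tissue libraries. Pseudogenes nearly identical to *Pou5f1* exist, as they do for *Nanog*, and how the authors' counting divided reads among such copies was not stated, so the levels of both genes carry that uncertainty.

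*Nanog* (chromosome 6, 122657586 to 122663796 in mm9) codes for the homeodomain factor that marks the naive state. The WT-labelled libraries had it at 168, 60.4, 3.77 and 62.5 FPKM in ES cells and at days 2, 4 and 6. The KO-labelled libraries had it at 182, 51.5, 42.9 and 172 FPKM. Unlike *Pou5f1* it was already past 2-fold lower at day 2 under both labels. From day 2 to day 4 it fell 16.0-fold in the WT-labelled libraries, whereas the KO-labelled values differed by 1.20-fold. At day 6 the KO-labelled library held 94.1% of its ES cell level. In tissue it was measured at 0.435 and 1.68 FPKM in the spinal column libraries labelled WT and KO and at 1.99 FPKM in spinal cord.

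*Sox2* (chromosome 3) codes for the partner of OCT4 that neural progenitors also use. Its values in the libraries labelled WT were 233, 172, 83.7 and 73.0 FPKM from ES cells to day 6. In those labelled KO they were 229, 173, 85.7 and 95.7 FPKM. It showed neither the deep minimum at day 4 nor a difference past 2-fold between labels in culture. It was the member with the highest level in tissue, at 31.9 FPKM in spinal cord and at 8.71 and 4.68 FPKM in the spinal column libraries labelled WT and KO. *Sox2* lies inside the noncoding gene *Sox2ot*, and the tables give both the same locus, 34459303 to 34576915. *Sox2ot* was at most 0.259 FPKM in ES cells and day 2 EBs, and at day 4 the WT-labelled library held 6.59 FPKM of it and the KO-labelled one 0.772 FPKM, beside 83.7 and 85.7 FPKM for *Sox2*.

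*Sall4* (chromosome 2, 168573832 to 168592701) is a zinc finger factor that binds with OCT4 and NANOG. It ranged from 32.5 to 68.3 FPKM in the culture libraries labelled WT and from 49.1 to 79.9 FPKM in those labelled KO, with the lowest value at day 4 under both labels. In the 3 tissue libraries it was between 0.0200 and 0.111 FPKM.

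*Lin28a* (chromosome 4, 133559245 to 133574731) codes for an RNA-binding protein that blocks the maturation of let-7 microRNAs and stays on in early neural progenitors. It followed an order of its own. In the libraries labelled WT it was at 173, 197, 199 and 55.9 FPKM from ES cells to day 6, and in those labelled KO at 198, 222, 212 and 68.2 FPKM. It was the only member that was near its highest level at day 4 under both labels and the only one past 2-fold lower between day 4 and day 6. In the 3 tissue libraries it was between 0.0672 and 0.208 FPKM.

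*Utf1*, *Dppa4*, *Dppa5a* and *L1td1* are genes whose activity is largely limited to pluripotent and germ cells. *Dppa5a* (chromosome 9), a small RNA-binding protein of the KH family, was the most abundant member, at 3744 FPKM in the WT-labelled ES cell library, where it ranked 6 among all symbols. It followed with 1835, 77.8 and 1026 FPKM at days 2, 4 and 6. Under the label KO the values were 4203, 1848, 619 and 3080.5 FPKM. *Utf1* (chromosome 7) was at 449.6, 508, 5.83 and 101 FPKM in the libraries labelled WT and at 447, 606, 58.8 and 224 FPKM in those labelled KO. *L1td1* (chromosome 4), an RNA-binding protein derived from a LINE-1 element, had the deepest minimum relative to ES cells. At day 4 it was at 0.975% of its ES cell level in the library labelled WT, 1.70 FPKM after 175 FPKM, and at 10.1% in the library labelled KO, 18.1 FPKM after 179.5 FPKM. It reached 23.7 and 79.1 FPKM at day 6. *Dppa4* (chromosome 16), a chromatin protein, was highest at day 2 under both labels, at 93.1 and 99.9 FPKM, and stood at 8.11 and 27.8 FPKM at day 4 and at 33.6 and 63.6 FPKM at day 6. *Utf1* and *Dppa4* were listed at 0 in all 3 tissue libraries.

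*Fgf5* (chromosome 5, 98683203 to 98706049), a growth factor of the formative epiblast, was the least abundant member in every culture library. It stood at 1.71 and 0.721 FPKM in the ES cell libraries labelled WT and KO, at 11.3 and 9.27 FPKM at day 2, at 0.149 and 0.501 FPKM at day 4 and at 1.11 and 1.08 FPKM at day 6. Only at day 2 was it clearly above the 1 FPKM used here as the floor for a comparison. It was also the only member whose lowest culture value was not above its highest tissue value, 0.728 FPKM in the spinal column library labelled KO.

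The time course was then read step by step, with a gene called past 2-fold if either of the libraries compared held more than 1 FPKM of it. From ES cells to day 2, 3 of 10 members passed 2-fold in the libraries labelled WT, against 13.1% of all genes tested. *Fgf5* rose (log2 ratio 2.72), and *Nanog* (-1.48) and *Dppa5a* (-1.03) fell. In the libraries labelled KO 3 of 10 passed, against 14.3% of all genes, and they were the same members, with log2 ratios of 3.68, -1.82 and -1.19. The *Fgf5* ratio there starts from 0.721 FPKM, under the floor, and with the floor in both libraries 0 members rose. *Fgf5* did not move alone. Of 8 other formative and primed genes, 7 rose past 2-fold under either label, led by *Otx2*, a homeobox factor that guides the exit from the naive state, from 2.88 to 44.4 FPKM in the libraries labelled WT and from 1.71 to 30.0 FPKM in those labelled KO. The gene of this list with the lowest ratio was *Fgf15* in the WT-labelled libraries (log2 ratio 0.78) and the DNA methyltransferase gene *Dnmt3b* in the KO-labelled ones (0.90). Of 13 naive genes 11 were lower in the WT-labelled libraries, with a median log2 ratio of -0.70, from *Dppa3* (0.49) to *Klf4* (-3.05).

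From day 2 to day 4, 9 of 10 members fell past 2-fold in the libraries labelled WT, against 13.7% of all genes tested, with a median log2 ratio of -4.28 where all genes had 0.09. The median of the members was smaller in size with 1 FPKM added, as given in the section on processing. *Utf1* had the lowest ratio (-6.45), followed by *L1td1* (-6.35), *Fgf5* (-6.24), *Pou5f1* (-5.38), *Dppa5a* (-4.56), *Nanog* (-4.00) and *Dppa4* (-3.52). *Sall4* (-1.07) and *Sox2* (-1.04) passed 2-fold narrowly, and *Lin28a* had a ratio of 0.01. Under the label KO 7 of 10 fell, against 7.71% of all genes, with a median of -1.71. *Fgf5* had the lowest ratio there (-4.21), and *Utf1* (-3.37), *Pou5f1* (-3.32) and *L1td1* (-3.31) followed. Over the same step all 13 naive genes fell in the libraries labelled WT, and *Nr0b1*, which codes for a nuclear receptor that binds OCT4, had the lowest ratio (-5.77). Under the label KO 12 of 13 were lower and 9 passed 2-fold, with a median of -1.34, and *Prdm14* was higher (0.44). In contrast, all 8 neural progenitor genes rose past 2-fold under both labels, against 15.6% of all genes under the label WT and 15.5% under the label KO, with medians of 3.55 in the libraries labelled WT and 2.21 in those labelled KO. *Sox1* and *Sox3*, the closest relatives of *Sox2*, were among them. *Sox3* went from 8.34 to 150.4 FPKM in the libraries labelled WT and from 8.94 to 41.2 FPKM in those labelled KO. *Lin28b*, the paralog of *Lin28a*, rose from 11.1 to 31.9 FPKM and from 9.55 to 25.1 FPKM.

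From day 4 to day 6, 7 of 10 members rose past 2-fold in the libraries labelled WT, against 17.0% of all genes tested. The median log2 ratio of the members was 3.10, beside 0.10 for all genes. *Utf1* had the highest ratio (4.11), followed by *Nanog* (4.05), *L1td1* (3.80), *Dppa5a* (3.72), *Pou5f1* (3.31), *Fgf5* (2.90) and *Dppa4* (2.05). *Sall4* (0.07) and *Sox2* (-0.20) were level. *Lin28a* fell (-1.83), 1 of 10 members past 2-fold lower, against 9.96% of all genes. In the libraries labelled KO 7 of 10 members rose, against 12.4% of all genes, and they were the same 7, with a median over the 10 members of 1.56. *Pou5f1* had the highest ratio (2.45), and *Lin28a* had the lowest (-1.64), while *Sall4* (0.37) and *Sox2* (0.16) were level. At day 6 all 10 members were below their ES cell level in the library labelled WT, with a median of 31.8% and a range from 13.5% for *L1td1* to 65.0% for *Fgf5*. In the library labelled KO 8 of 10 were, the exceptions being *Dppa4* (117%) and *Fgf5* (149.7%), and the median was 67.5%.

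**Figure D2:**
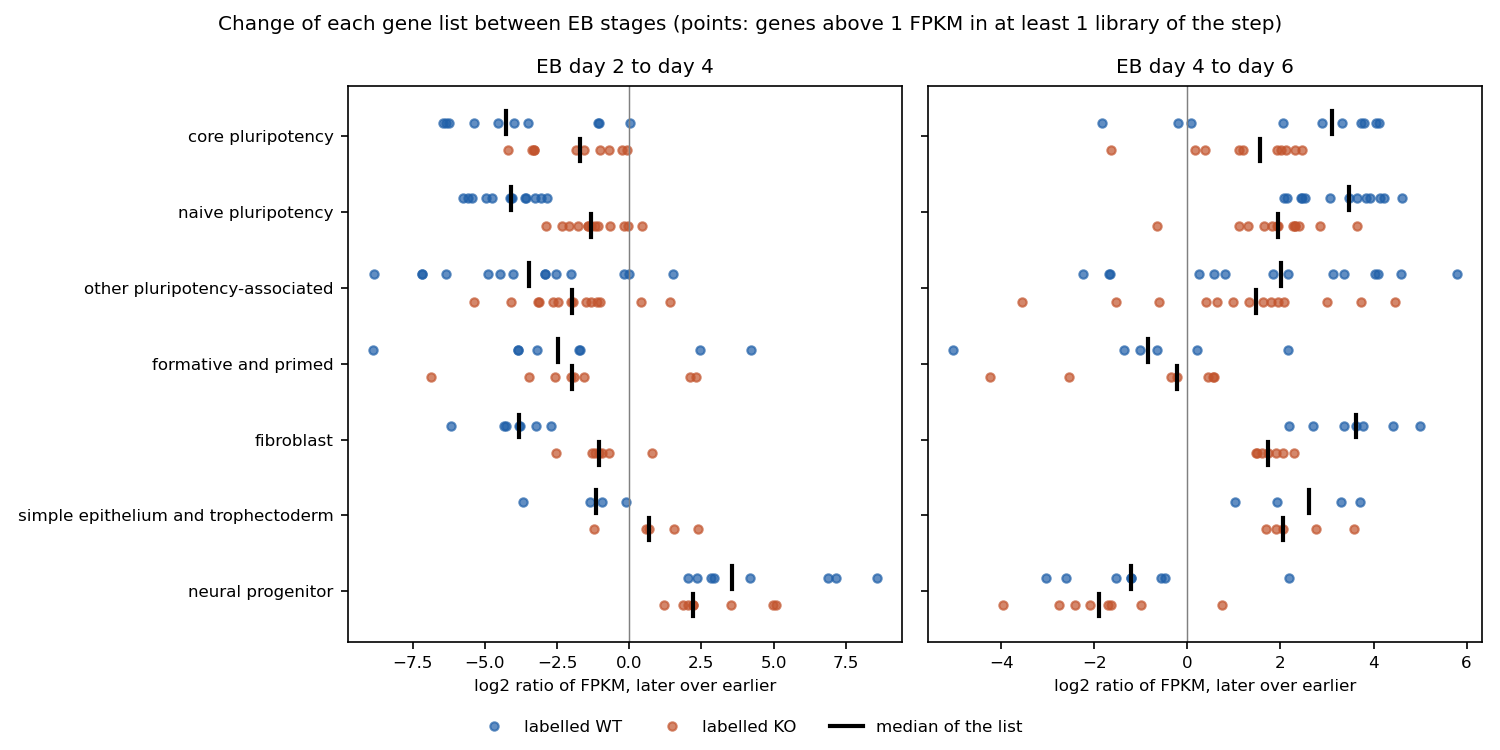
Log2 ratio of FPKM between EB stages (left, day 4 over day 2; right, day 6 over day 4) for 7 gene lists, 1 point per gene above 1 FPKM in at least 1 library of the step, blue labelled WT, orange labelled KO, black bars at list medians. Core, naive and fibroblast genes lie mostly below 0 on the left and above 0 on the right, with core medians of -4.28 and 3.10 in the libraries labelled WT, while neural progenitor genes lie mostly on the other side.

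Other genes moved with the members between day 4 and day 6. All 13 naive genes rose past 2-fold in the libraries labelled WT, with a median log2 ratio of 3.47 and a range from *Klf5* (2.07) to *Nr0b1* (4.61), and 12 of 13 did in the libraries labelled KO, *Dppa3* having a ratio of -0.65. Of 14 other pluripotency-associated genes 8 rose past 2-fold under either label, while 3 fell under the label WT (lowest *Trim71*, -2.25) and 2 under the label KO (lowest *Lin28b*, -3.56). Under the label KO 1422 of all 12921 genes tested fell past 2-fold in this step. *Tdgf1*, which codes for the Nodal co-receptor CRIPTO, had the highest ratio in the libraries labelled WT, from 0.320 to 17.7 FPKM. *Fgf5* was past 2-fold higher at day 6 but only just above the floor, and of the 6 other formative genes above the floor in the WT-labelled libraries 1, *Pou3f1*, rose past 2-fold (log2 ratio 2.16) and 3 fell. In the KO-labelled libraries 0 of 7 rose past 2-fold and 2, *Fgf15* and *Sall2*, fell. Both also fell under the label WT, from a highest culture value at day 4, unlike *Fgf5*. There *Fgf15* was at 3.10, 57.7 and 1.75 FPKM at days 2, 4 and 6, and *Sall2* at 7.55, 41.7 and 16.2 FPKM. Fibroblast genes followed the members as well, and whether their RNA came from the feeder layer or from cells of the EBs was not tested. All 7 fibroblast genes fell past 2-fold from day 2 to day 4 in the libraries labelled WT, 4 of 7 did in those labelled KO, where *Dcn* had a log2 ratio of 0.79, and all 7 rose past 2-fold from day 4 to day 6 under both labels. *Col1a1*, a collagen chain, was at 158, 11.6, 1.23 and 17.0 FPKM from ES cells to day 6 in the libraries labelled WT and at 169.6, 15.7, 9.74 and 47.7 FPKM in those labelled KO. Summed over the fibroblast list, the FPKM values from ES cells to day 6 were 373, 66.8, 5.20 and 51.4 under the label WT and 406, 70.0, 34.6 and 133.0 under the label KO. None of the 7 genes was at 0 in any library. Simple epithelial and trophectoderm genes, led by the keratin genes *Krt8* and *Krt18*, summed to 44.6 FPKM at day 4 and 129 FPKM at day 6 in the libraries labelled WT and to 256 and 1076.5 FPKM in those labelled KO. The neural progenitor sum went the other way, from 483 to 202 FPKM and from 150.2 to 35.5 FPKM. Neuronal genes rose with the members under the label WT, where all 6 passed 2-fold with a median log2 ratio of 4.08 and a sum going from 29.0 to 802 FPKM. Under the label KO the sum went from 35.7 to 108 FPKM, and of 4 neuronal genes above the floor 2 rose and 1 fell past 2-fold. The tubulin gene *Tubb3* had the highest ratio under the label WT, from 14.4 to 560.7 FPKM, and stood at 41.3 FPKM at day 6 under the label KO. The part of these other cells in the members' values was not tested.

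**Figure D3:**
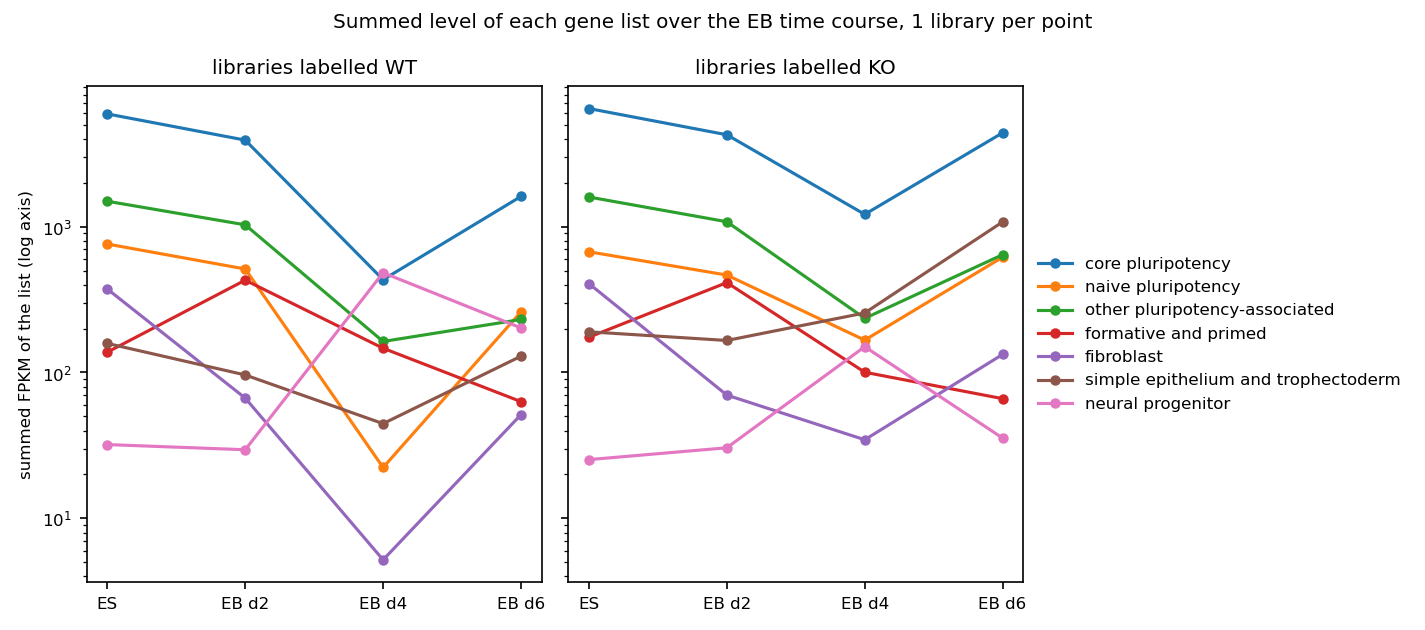
Summed FPKM (log axis) of 7 gene lists in ES cells and at EB days 2, 4 and 6, 1 library per point, libraries labelled WT on the left and labelled KO on the right. The core list goes to 433 FPKM at day 4 and 1608.5 FPKM at day 6 under the label WT, and the fibroblast list has the same minimum, at 5.20 FPKM. *Dppa5a* is the highest gene of the core sum at every point except day 4 under the label WT, where *Lin28a* is.

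The libraries labelled KO and WT were compared within each stage. In ES cells 1 of 10 members differed past 2-fold, against 1.04% of all genes tested. That member was *Fgf5* (log2 ratio of KO-labelled over WT-labelled -1.25), which was at or near the floor in both libraries and did not pass with 1 FPKM added or with the floor in both libraries, and the other members lay between -0.03 and 0.20. At day 2, 0 of 10 members differed past 2-fold, against 2.51% of all genes, and the ratios ran from -0.29 for *Fgf5* to 0.38 for *L1td1*.

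At day 4, 9 members were above the floor, all except *Fgf5*. Of these 6 were past 2-fold higher in the library labelled KO, against 12.1% of all genes tested, and none was lower. The median log2 ratio of the 9 members was 2.31, where all genes had -0.03. *Nanog* had the highest ratio (3.51, or 11.4-fold), followed by *L1td1* (3.41), *Utf1* (3.33), *Dppa5a* (2.99), *Pou5f1* (2.31) and *Dppa4* (1.78). *Sall4* (0.59), *Lin28a* (0.09) and *Sox2* (0.03) did not pass 2-fold. At day 6 these 6 genes had smaller ratios in the same direction. Of 10 members 5 were past 2-fold higher in the library labelled KO, against 10.5% of all genes, with *L1td1* (1.74), *Dppa5a* (1.59), *Nanog* (1.46), *Pou5f1* (1.46) and *Utf1* (1.15) passing and *Dppa4* (0.92) and *Sall4* (0.90) just under. The day 4 ratios between labels and the WT-labelled steps into and out of day 4 all use the same WT-labelled day 4 library, so they are not separate observations.

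**Figure D4:**
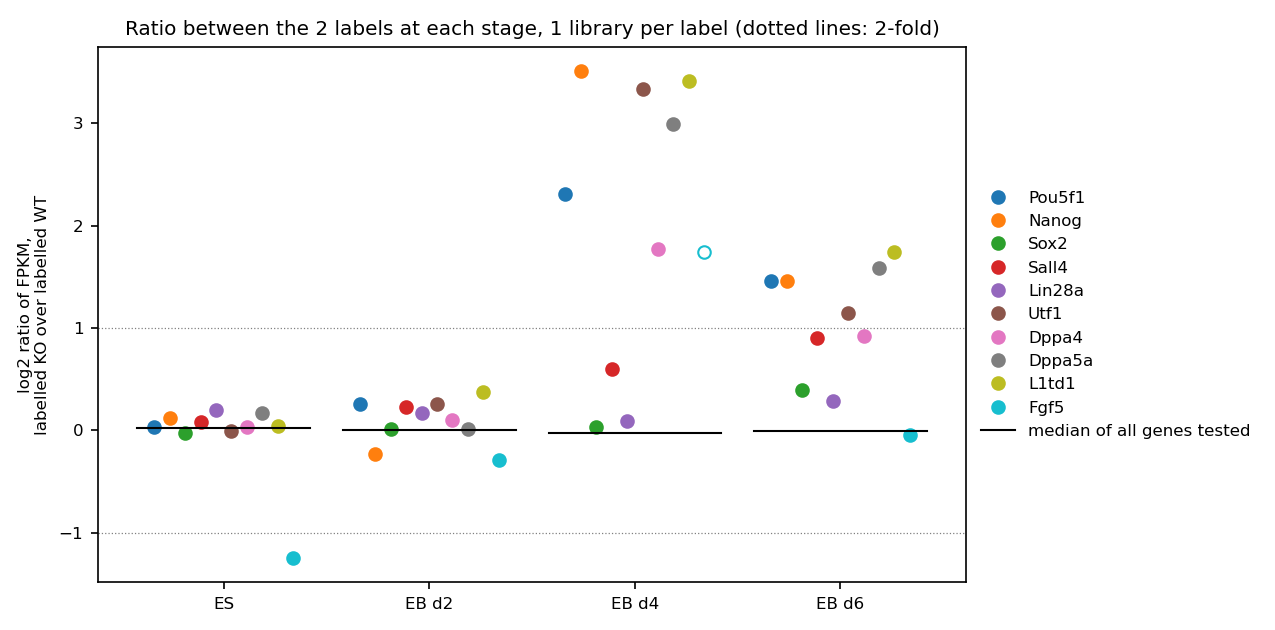
Log2 ratio of FPKM, library labelled KO over library labelled WT, for the 10 members at 4 stages of culture, 1 library per label; the open circle marks *Fgf5* at day 4, under 1 FPKM in both libraries, black bars are the median of all genes tested and dotted lines mark 2-fold. Most members lie within 0.4 of 0 in ES cells and at day 2, and 6 lie above 1 at day 4 with *Nanog* at 3.51.

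The same lists were read beside the members. At day 4 all 13 naive genes were past 2-fold higher under the label KO, the median log2 ratio being 2.96, in a range from *Klf4* (1.60) to *Esrrb* (3.87), an orphan nuclear receptor. Of the other pluripotency-associated genes 9 of the 13 above the floor were past 2-fold higher, from *Mycn* (-1.61) to *Tdgf1* (4.75). Among 11 genes related to members by family or by name 4 were past 2-fold higher and 3 lower. Those higher include *Dppa3*, which shares only its name with *Dppa4* and *Dppa5a* and is also counted among the 13 naive genes. *Fgf4*, the ES cell relative of *Fgf5*, had the highest ratio (3.79), and *Sox1* had the lowest (-2.07), from 30.7 FPKM in the library labelled WT to 7.31 FPKM in the library labelled KO, while *Sox2* itself had a ratio of 0.03. All 7 fibroblast genes (median 2.98) and all 5 simple epithelial genes (median 3.10) were past 2-fold higher in the KO-labelled library as well, and 6 of 8 neural progenitor genes were past 2-fold lower, against 4.37% of all genes, *Hes5*, a target of Notch signalling, having the lowest ratio (-4.30). At day 6 11 of 13 naive genes, 4 of 7 fibroblast genes and all 5 simple epithelial genes were past 2-fold higher in the library labelled KO, and 7 of 8 neural progenitor genes were past 2-fold lower, against 9.92% of all genes. All 6 neuronal genes were past 2-fold lower at day 6 as well, with a median log2 ratio of -4.09, from *Stmn2* (-1.51) to *Snap25* (-4.76). The part of these other cell types in the members' ratios was not tested.

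In newborn tissue 9 of the 10 members were under 2 FPKM in every library or listed at 0, and *Sox2*, at 31.9 FPKM in spinal cord, was the exception. Against the ES cell library labelled WT, as listed in the table it shares with spinal cord, all 10 members were past 2-fold lower in spinal cord, where 35.7% of all genes tested were. *Pou5f1*, *Utf1* and *Dppa4* were listed at 0, and the other log2 ratios ran from -12.60 for *L1td1* to -2.99 for *Sox2*. General markers of neural tissue were present in cord, where the astrocyte water channel gene *Aqp4* was at 72.0 FPKM and the neuronal gene *Snap25* at 150.8 FPKM. All 13 naive genes were past 2-fold lower too. Of the 11 genes related to members by family or by name 6, among them *Dppa3*, were past 2-fold lower. Past 2-fold higher were 4, beside 4335 of all 14274 genes tested. *Sall1* (35.0 FPKM in ES cells and 10.3 FPKM in cord) was lower like *Sall4* (66.0 and 0.111 FPKM), while *Sall2* (1.80 FPKM in ES cells and 24.9 FPKM in cord) and *Sall3* (0.550 and 11.2 FPKM) were higher in cord. In spinal column 2 members, *Nanog* and *Sox2*, were above 1 FPKM in at least 1 library. Of these 1 passed 2-fold, *Nanog* (log2 ratio of KO-labelled over WT-labelled 1.95), against 17.5% of all genes in either direction. It was above the floor only in the library labelled KO, and with 1 FPKM added or with the floor in both libraries 0 members passed. Simple epithelial genes had ratios in the same direction as *Nanog*, all 4 above the floor being higher and 3 past 2-fold (median 1.65), from *Krt18* (0.24) to *Krt8* (1.98, at 2.09 and 8.24 FPKM), and their part in the *Nanog* ratio was not tested. *Sox2* had a ratio of -0.90. Whole column holds bone, cartilage and connective tissue beside the cord, and the summed fibroblast markers there were 3600 FPKM in the library labelled WT and 2950 FPKM in the one labelled KO, *Col1a1* alone being at 1423 and 753 FPKM and the median log2 ratio of the list 0.06. Neuronal and glial markers were lower together with *Sox2* in the library labelled KO, where the 5 neuronal genes compared had ratios below 0 (median -0.67, 2 past 2-fold), and all 6 glial genes did (median -0.59, 0 past 2-fold). The remaining neuronal gene, *Dcx*, was at 21.3 and 8.05 FPKM and was left out of the ratios because the authors' table gives it the status FAIL. The neural progenitor genes were mixed, with 6 of 8 below 0 (median -0.29, 1 past 2-fold) in a range from *Msi1* (-1.44) to *Sox21* (0.21). The part of tissue composition in the *Sox2* ratio was not tested.

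The likeness of whole profiles was described by Pearson's r of log2(FPKM + 1) over the 11 libraries, among genes above 10 FPKM in at least 1 of them. The libraries are 8 of culture and 3 of tissue, and genes that are on in culture and off in tissue can score high for that alone, so r is given as a description. The 5 genes most like *Pou5f1* were *Mageb16* (r = 0.996), *Utf1* (0.995), *Zfp534* (0.995), *Cbx7* (0.994) and *Zfp987* (0.993). *Mageb16* stood at 37.9, 36.6, 4.51 and 17.0 FPKM from ES cells to day 6 in the libraries labelled WT and was listed at 0 in the 3 tissue libraries. *Cbx7*, which codes for a Polycomb protein of ES cells, stood at 41.9, 66.1, 9.88 and 22.1 FPKM. The 5 genes most like *Sox2* were *Klhl12* (0.995), *Pgam1* (0.987), *Nacc1* (0.986), *Rangap1* (0.985) and *Xpo6* (0.984). None of these was among the 5 most like *Sox2* when the 8 culture libraries were used alone, and for *Pou5f1* 1 of the 5, *Utf1*, was. Among the members, r with *Pou5f1* over 11 libraries was lowest for *Fgf5* (0.596) and between 0.901 for *Lin28a* and 0.995 for *Utf1* for the others. Over the 8 culture libraries it was 0.000278 for *Lin28a* and 0.758 for *Sox2*, and it was 0.994 for *L1td1* and *Utf1*.

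TAF9B and RNA polymerase II (POL2) binding in motor neuron EBs was available as 1 peak list per antibody, with 10415 and 8620 peaks. A peak was assigned to a start site if its midpoint lay within 500 bp of any annotated transcript start. POL2 peaks were found at 2 of 10 members, *Sox2* and *Fgf5*, against 55.9% of the 10764 genes above 1 FPKM in the WT-labelled day 6 library. At *Sox2* the POL2 peaks had midpoints 450 bp and 38 bp before the nearest start, and another lay 975 bp after it in the coding exon. The strongest of them (chr3:34548771-34549269, mm9) had a score of 147.1, above 54.2% of the list. The *Fgf5* peak (chr5:98682977-98683601) had its midpoint 86 bp after the start and a score of 104.05, although *Fgf5* was at 1.11 FPKM in the WT-labelled day 6 library. Of the 9 members above 10 FPKM in that library 1, *Sox2*, had a POL2 peak at a start, where 68.8% of the 5863 genes at such levels did. Between 500 bp and 50 kb of a start, POL2 peaks were found at 2 of 10 members, where 55.8% of the 10764 genes had one. These were the peak in the *Sox2* coding exon and a peak 17916 bp from the *Lin28a* start, which lay outside the gene and 7 bp from the start of *Dhdds*. The nearest POL2 peak lay 126.4 kb from *Pou5f1*, at 198 FPKM, and 80.3 kb from *Dppa5a*, at 1026 FPKM. These expression values come from day 6 EBs of the JM8 clone and the peaks from HBG3 EBs of a later day, in which the members were not measured by RNA-seq here.

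TAF9B peaks were found at 1 of 10 members, against 31.6% of the same 10764 genes. This peak, chr2:168590570-168590754, lay in *Sall4*, 84 bp after the start of an annotated shorter transcript and 2781 bp inside the gene from its 5′ end, and overlapped coding sequence. Its score of 156.3 was above 83.3% of the TAF9B list, and no POL2 peak overlapped it. The only member with TAF9B peaks between 500 bp and 50 kb of a start was *Lin28a*, where 58.6% of the 10764 genes had one. Of its 3 peaks 2 lay outside the gene and nearer to the starts of *Hmgn2* and *Dhdds*. The remaining peak, chr4:133569110-133569371 of mm9, lay in an intron 5516 bp after the *Lin28a* start with a score of 83.07, close to the list median of 83.26, and the nearest annotated start, 4822 bp away, was that of the gene model *Gm13061*. It is shown whole because it is the one TAF9B peak in an intron of a member. It reads 5′ to 3′ on the minus strand, that of the gene, and holds none of the 4 motifs searched above.
*Lin28a* intronic TAF9B peak, mm9: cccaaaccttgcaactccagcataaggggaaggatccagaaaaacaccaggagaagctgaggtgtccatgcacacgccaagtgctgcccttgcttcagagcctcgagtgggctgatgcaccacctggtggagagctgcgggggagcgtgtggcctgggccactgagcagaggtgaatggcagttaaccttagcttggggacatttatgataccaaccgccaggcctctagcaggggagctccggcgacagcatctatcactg
*Nanog* had no TAF9B peak within 50 kb, the nearest lying 53.6 kb away, and at the other 7 members the nearest TAF9B peak was between 73.4 kb (*Fgf5*) and 326 kb (*Dppa4*) away.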

How the data were processed

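The authors mapped poly-A RNA-seq reads with TopHat against RefSeq genes and obtained FPKM values with Cuffdiff, and these deposited FPKM values were used as they stand. The deposited peak lists carry an unnamed score column, taken here as the score of the peak caller that the authors ran after mapping with Bowtie, on build mm9. The tool versions were not stated. The tables also hold the authors' own fold changes and p-values, which were not used. The IgG control had no peak list and was not analysed here.

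Of 23152 loci, identical in the 6 tables, 22832 were matched to a symbol through RefSeq accessions, and of a symbol with several loci the locus with the highest mean FPKM was kept. Log2 ratios were taken without a pseudocount for genes above 1 FPKM in either library compared, leaving out loci with the status HIDATA or FAIL. A gene listed at 0 in 1 library has no ratio but counts as lower or higher. A gene was called past 2-fold, without a test. Tables were normalized separately, so ratios between stages carry a difference of scale, which for the ES cell library listed in 2 tables is a factor of 1.09. The median log2 ratio of all genes was between -0.03 and 0.10 in the culture comparisons and -0.26 for spinal cord over ES cells. Gene positions are 1-based mm9 coordinates of the tables, and 99.3% of the loci with a GENCODE symbol overlapped that gene. Peak positions were compared with GENCODE transcript starts of the same build.

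The members and gene lists were chosen with earlier results of these data known. The named genes are the 10 members, *Taf9b*, the highest and lowest member of each list in the comparison described, and the 5 genes most like *Pou5f1* and *Sox2*. Other genes, such as *Col1a1*, *Krt8*, *Krt18*, *Sox3*, *Sox2ot*, *Aqp4*, *Snap25*, *Dcx* and *Sall1*, were named after their values were seen. The calling of ratios was run on simulated data with changes set well past 2-fold and a small assumed noise. That checks the code only and says nothing of how reliable calls from single libraries are. Python 3.11.15, numpy 2.4.6, pandas 2.3.3 and matplotlib 3.10.9 were used.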

Additional observations from a re-analysis of the deposited data

How the results depend on the processing

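No paired analysis was made. The labels could be paired by stage, but the stages are not replicates of a condition. Leaving out a replicate was not possible because each condition has 1 library. Medians and counts of members were recomputed with 0.1 or 1 FPKM added, without the floor, with the floor in both libraries, centred on all genes, as shares of the summed FPKM and with loci averaged. By a limit of 1.5 times, 245 of 265 such values were counted as staying and 20 as moved. The 245 are no measure of robustness. Averaging loci could not move a member, since each was found at 1 locus, and some counts were 0 under every setting. A median near 0 could count as staying when its sign changed, as between labels in ES cells (0.0375, and -0.000786 as shares). No value past 2-fold turned its direction. With 1 FPKM added the median of the WT-labelled step from day 2 to day 4 was -3.55, and *Fgf5* no longer passed between labels in ES cells (0 members lower, as with the floor in both libraries). With the floor in both libraries 0 members rose from ES cells to day 2 in the libraries labelled KO. For spinal cord over ES cells the median over the 10 members, -11.95 as first computed, was -9.66 with 0.1 FPKM added, -6.71 with 1 FPKM added, -11.31 as shares and -4.76 with the floor in both libraries, where 2 members remained and both fell. In spinal column, where few members were above the floor, the median went from 0.53 to -0.90 without a floor and with the floor in both libraries. The members past 2-fold higher there were 2 without a floor, and 0 with 1 FPKM added or with the floor in both libraries. Those lower were 3 without a floor and 1 as shares, since the summed FPKM of the 2 libraries differed. Keeping peaks with a score above the list median left POL2 at the start of 1 member (32.0% of the 10764 genes), distal POL2 peaks at 0 (38.3%) and distal TAF9B peaks at 0 (40.2%), and a limit of 10 kb left distal POL2 peaks at 1 member (20.1%), where 50 kb gave 2. The 5 genes most like a member depended on the measure. By Spearman's rho 0 of the 5 named for *Pou5f1* and 1 of the 5 named for *Sox2* were kept, and over the 8 culture libraries alone, a choice made after seeing the data, 1 and 0. Depth is unknown, so the precision of values under 1 FPKM could not be given.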

Other observations

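The germ cell genes examined, *Ddx4*, *Dazl*, *Mael* and *Sycp3*, were measured in culture together with the members. Their summed FPKM in the libraries labelled WT was 33.1 in ES cells, 60.7 at EB day 2, 12.2 at day 4 and 27.8 at day 6, and in those labelled KO 27.1, 34.1, 26.9 and 46.2. The 4 genes did not move together. From ES cells to day 6 *Dazl*, an RNA-binding protein of germ cells, went from 1.74 to 5.52 FPKM under the label WT and from 1.83 to 12.3 FPKM under the label KO, and *Mael* from 5.18 to 8.80 FPKM and from 5.23 to 14.3 FPKM. *Sycp3* went from 12.2 to 6.31 FPKM and from 6.78 to 5.89 FPKM, and *Ddx4* from 13.97 to 7.15 FPKM and from 13.3 to 13.7 FPKM. *Dppa2*, the neighbour and partner of *Dppa4*, stood at 32.0, 32.2, 1.45 and 34.9 FPKM from ES cells to day 6 in the libraries labelled WT. In those labelled KO it stood at 35.8, 39.3, 15.5 and 123.6 FPKM, so that its day 6 value was the highest of the 8 culture libraries. *Dppa3*, a germ cell and naive state gene, was at 16.9 and 20.6 FPKM at day 6. Primitive endoderm genes summed to at most 17.3 FPKM in any library. These genes were chosen for description after their values were seen.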
